A study of Homo sapiens with 47 samples.

Results

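ZIC1, ZIC2, ZIC4 and ZIC5 are members of the ZIC family and were followed by their Ensembl identifiers in all 47 libraries, as 4 of the 58051 genes listed for each library. RNA came from WA09 (H9), an established line of human embryonic stem cells (hESCs), as undifferentiated cells (t0), after 36 h as neuromesodermal progenitor-like (NMP-like) cells, and at passages P1 to P10, all labelled as neural progenitors derived from hESCs. From P5 the study describes these cultures as holding pre-neural progenitors (PNPs) and neural crest (NC). From t0 onwards the cells were kept in N2B27 without vitamin A and with CHIR-99021 (a WNT agonist), rhFGF2, AGN193109 (an inverse agonist of retinoic acid receptors) and Y-27632 (a ROCK inhibitor), whereas t0 cells grew in mTESR1 on Matrigel. Each of 3 differentiations (r1, r2 and r3) of this single line gave a library per time point, except P9, for which r1 and r2 were analysed here. At P5 and P8, cultures were also split by selective detachment with TrypLE into an epithelial fraction (EPI, enriched for PNPs) and a mesenchymal fraction (MES, enriched for NC), with 3 libraries each, so that 35 libraries were whole cultures and 12 were fractions.

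ZIC proteins are zinc finger transcription factors whose DNA-binding domain is related to that of the GLI proteins of hedgehog signalling. In vertebrate embryos ZIC genes are expressed in the neural plate and its border, in the dorsal neural tube and in dorsal somites, and they take part in neural crest formation and neural tube closure. ZIC2 is also expressed in pluripotent cells, and loss of one copy of ZIC2 in humans causes holoprosencephaly, while ZIC1 and ZIC4 lie together in a region linked to malformation of the cerebellum. Several ZIC genes lie as divergent neighbours in the genome, and the genes reported here form a pair of such neighbours on each of 2 chromosomes.

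In GENCODE 29 (GRCh38), ZIC1 (ENSG00000152977) runs along the plus strand of chromosome 3 from 147393422 to 147510293 and ZIC4 (ENSG00000174963) along the minus strand from 147386046 to 147406860. As annotated they overlap by 13439 bases on opposite strands, and since the strand setting of the quantification is not given in the sources used here, reads from the overlap may not have been told apart. The expected counts of ZIC1 and ZIC4 were whole numbers in every library, so none showed a divided read, but a read placed whole in the wrong gene would not show there. Those of ZIC2 and ZIC5 were not whole in P6 r1 (10899.77 and 4677.23) and in r2 of P8, P8 EPI and P8 MES. ZIC5 (ENSG00000139800) lies on the minus strand of chromosome 13 from 99962964 to 99971909, and ZIC2 (ENSG00000043355) on the plus strand from 99981772 to 99986773, with 9862 bases between them. All 4 are protein-coding.

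Bases upstream of a RefSeq-annotated start of each gene are shown because the members of each pair moved together in these cultures. They are the upstream parts of RefSeq promoter windows (GRCh38.p14), written 5′ to 3′ on the strand of the gene, ending where the annotated transcript begins. For ZIC4, which has several annotated starts, the window shown is the one that holds no annotated ZIC4 exon. The ZIC1 and ZIC4 windows lie inside the gene spans given above, since GENCODE 29 also lists starts further upstream. Capitals mark matches to CCAAT on either strand, the only one of 5 searched motifs with a match here.
ZIC1: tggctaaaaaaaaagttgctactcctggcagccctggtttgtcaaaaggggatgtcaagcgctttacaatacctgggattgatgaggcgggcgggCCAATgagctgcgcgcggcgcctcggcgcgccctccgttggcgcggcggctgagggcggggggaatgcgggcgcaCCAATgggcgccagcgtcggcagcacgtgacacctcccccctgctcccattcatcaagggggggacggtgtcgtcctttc
ZIC4: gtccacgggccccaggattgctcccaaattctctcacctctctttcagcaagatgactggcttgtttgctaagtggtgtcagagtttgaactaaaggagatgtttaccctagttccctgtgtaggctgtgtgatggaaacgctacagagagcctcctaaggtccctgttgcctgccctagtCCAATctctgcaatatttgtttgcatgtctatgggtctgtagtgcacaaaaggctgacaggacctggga
ZIC5: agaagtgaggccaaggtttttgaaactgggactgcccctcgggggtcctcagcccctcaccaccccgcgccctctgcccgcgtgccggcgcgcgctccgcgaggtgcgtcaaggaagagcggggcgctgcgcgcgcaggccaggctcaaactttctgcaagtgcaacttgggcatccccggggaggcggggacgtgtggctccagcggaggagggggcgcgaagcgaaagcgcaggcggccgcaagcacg
ZIC2: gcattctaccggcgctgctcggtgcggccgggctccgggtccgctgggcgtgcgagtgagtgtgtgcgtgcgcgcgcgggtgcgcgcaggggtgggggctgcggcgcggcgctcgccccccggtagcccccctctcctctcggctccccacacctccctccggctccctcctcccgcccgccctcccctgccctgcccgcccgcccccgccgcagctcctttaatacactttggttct
The windows lie at chr3:147409115-147409364 (plus strand, ZIC1), chr3:147404285-147404534 (minus strand, ZIC4), chr13:99971910-99972159 (minus strand, ZIC5) and chr13:99981534-99981771 (plus strand, ZIC2). The CCAAT letters occurred at 2 places upstream of ZIC1 and at 1 upstream of ZIC4, and 32% of the 35116 RefSeq windows of 250 bases hold them. No match was found in any of the 4 windows to CTTTGAA or CTTTGAT, the letters of TCF/LEF sites (in 3.8% and 2.26% of all windows), to TTTATGG, those of a CDX site (2.3%), or to TGGGTGGTC, those of a GLI site (0.199%). The windows of ZIC1, ZIC5 and ZIC2 were 64.4%, 70.4% and 76.1% G and C, above the median of 58% over all windows, and the ZIC4 window was 49.6% G and C.

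Expected counts summed to between 13029491 and 64082859 per library. Before the results, 2 libraries stood apart from those of their group: P10 r1 and P1 r1 had a mean correlation with the other libraries of their time point of 0.866 and 0.872 (log2 CPM), against 0.906 to 0.993 for the others. The 5 hESC markers summed to 3092 to 3480 TPM at t0 and to 3.85 to 10.4 TPM at P8. The earliest passages held other markers too, with the pluripotency gene POU5F1 at up to 863 TPM at P1 and the mesoderm gene TBX6 at up to 245, 140.1 and 118 TPM at P1, P2 and P3. Of the epithelial neural progenitor markers, CDH1 and ESRP1 stayed at or below 1.08 and 0.56 TPM in every fraction library, and SOX2 and CDX2 reached 301 and 445 TPM. The NC markers summed to 600.2 to 1169 TPM in P5 EPI and 1511 to 1758 TPM in P5 MES. Most of that was CDH11, at 535 to 950.3 TPM in P5 EPI and 1135 to 1270 TPM in P5 MES, whereas SOX10 was at 0.54 to 2.49 and 3.69 to 24.1 TPM and FOXD3 at 1.32 to 1.84 and 3.14 to 7.96 TPM. Since all samples are bulk, fewer cells of a type and less RNA per cell cannot be told apart in any value below.

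The first comparison asked which ZIC genes undifferentiated cells express and how their levels move over the passages. ZIC2 and ZIC5 were on at t0 and fell by P1 and P2, and from P3 to P10 neither was called different from t0. At P3 every library of both was still below its lowest t0 library. ZIC1 and ZIC4 were close to 0 at t0 and were higher from P2 to P10. Of the 6 NC mesenchyme markers some moved over the same time. Their sum went from a level of 34.3 to 38.9 TPM at t0 to 587, 1133 and 1378 TPM in r1, r2 and r3 at P2 and 531, 1515 and 1582 TPM at P3, with 2317 and 2058 TPM at P9. Most of the P2 sum was CDH11, a cadherin of mesenchymal cells (13.5 to 15.9 TPM at t0 and 485 to 1228 TPM at P2), with SNAI2 at 0.69 to 1.2 and 36.1 to 93.7 TPM. TWIST1 went from 0.07 to 0.23 TPM at t0 to 0.74 to 73.6 TPM at P2 and 4.12 to 214 TPM at P3. SOX9 was at 6.7 to 8.45 TPM at t0 and 6.56 to 36.5 TPM at P2. SOX10 and FOXD3 had not followed by P2, at 1.63 to 2.2 and 10.6 to 13.1 TPM at t0 and at most 1.45 and 1.82 TPM at P2. Later they were higher in some libraries, with SOX10 at 0.78 to 15.2 TPM and FOXD3 at 9.27 to 93.5 TPM at P8. At P10 they were at most 0.76 and 11.9 TPM. The 6 neuronal markers summed to 153 to 190.2 TPM at t0, 241 to 461 TPM at P1, 287 to 444 TPM at P2 and 204 to 275 TPM at P8. Among them, STMN2 was at 5.5 to 8.81 TPM at t0, 42.4 to 111 TPM at P1 and 1.1 to 7.43 TPM at P4. The part of these markers' cells in the ZIC1 and ZIC4 levels was not tested. The trajectories are in TPM, a relative transcript level scaled by length that allows genes to be compared.

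**Figure D1:**
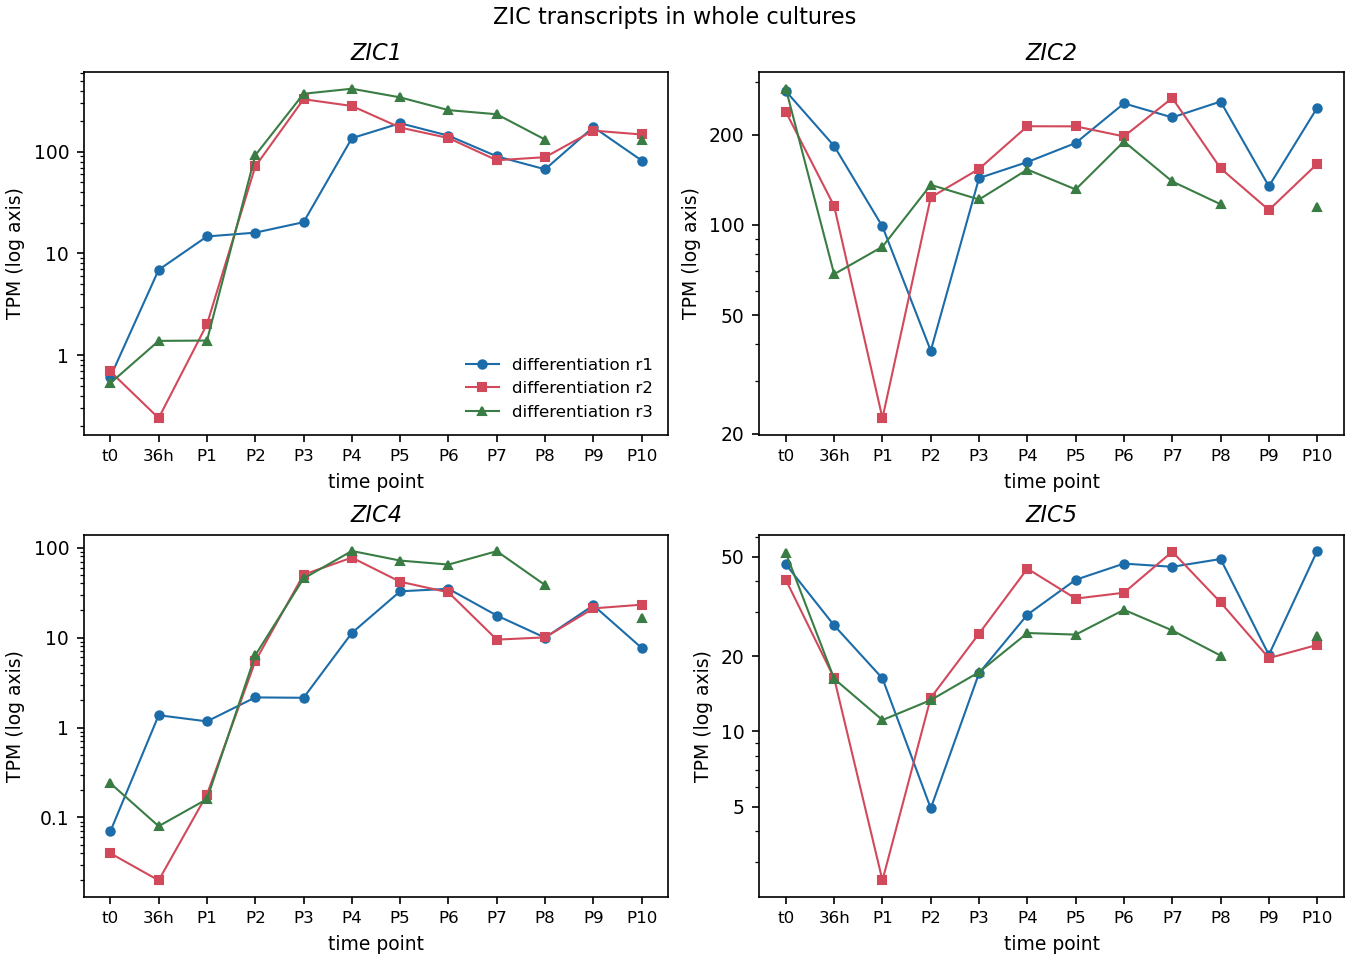
TPM on a log axis at each time point for ZIC1, ZIC4, ZIC2 and ZIC5, with 1 line per differentiation (r1 circles, r2 squares, r3 triangles) and no r3 point at P9. ZIC1 and ZIC4 rise together by P3 in r2 and r3 and by P4 and P5 in r1, and ZIC2 and ZIC5 dip together at P1 in r2 and at P2 in r1.

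ZIC1 is needed with PAX3 to induce neural crest in the frog embryo. At t0 the r1, r2 and r3 libraries held 0.61, 0.69 and 0.53 TPM, from 28 to 34 reads per library. At 36 h the values were 6.90, 0.24 and 1.38 TPM, and at P1 they were 14.7, 2.01 and 1.39 TPM. Through P1 the r1 culture was thus above the others from 36 h onwards. At P2 the order reversed, with 16.01 TPM in r1 and 71.8 and 92.3 TPM in r2 and r3, and at P3 the values were 20.3, 329 and 372 TPM. ZIC1 reached 100 TPM at P3 in r2 and r3 and at P4 in r1 (136 TPM). The highest level was 191 TPM at P5 in r1, 329 TPM at P3 in r2 and 417 TPM at P4 in r3. At P8 it was at 67.3, 88.4 and 132 TPM. P9 held 175 and 162 TPM, and P10 held 82.0, 148 and 132 TPM.

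ZIC4 is the divergent neighbour of ZIC1. At t0 it was at 0.07, 0.04 and 0.24 TPM, which are 5, 1 and 7 reads, so its fold changes against t0 rest on very few reads. It was at 1.37, 0.02 and 0.08 TPM at 36 h and at 1.17, 0.18 and 0.16 TPM at P1, again highest in r1. At P3 it was at 2.14 TPM in r1 and at 50.0 and 45.4 TPM in r2 and r3, and it reached 10 TPM at P4 in r1 and at P3 in the others, as ZIC1 reached its own level. The peak was 34.8 TPM at P6 in r1, 77.3 TPM at P4 in r2 and 91.7 TPM at P4 in r3. At P7, r3 still held 91.1 TPM while r1 and r2 were at 17.6 and 9.48 TPM. At P8 the values were 9.96, 10.0 and 38.3 TPM, at P9 22.8 and 21.1 TPM, and at P10 7.66, 23.2 and 16.7 TPM.

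ZIC2 was the most abundant of the 4 genes in hESCs, at 280.3, 239 and 286 TPM at t0. It was at 184, 116 and 68.5 TPM at 36 h, below the lowest t0 library in every differentiation. The lowest level was 38.0 TPM at P2 in r1, 22.6 TPM at P1 in r2 and 68.5 TPM at 36 h in r3, so the dip came at a different time point in each. At P3 the libraries were close to each other again, at 144, 154 and 122 TPM, and at P6 they were at 255, 198 and 190.2 TPM. At P8 they had spread to 259, 155 and 117 TPM, and P10 showed the same order with 246, 160.1 and 115 TPM. Both P9 libraries were lower, at 135 and 112 TPM.

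ZIC5, the divergent neighbour of ZIC2, followed it at a lower level. At t0 it was at 46.5, 40.4 and 51.7 TPM, at 36 h at 26.5, 16.3 and 16.3 TPM, and at P1 at 16.3, 2.54 and 11.1 TPM. At P2 it was at 4.93, 13.6 and 13.4 TPM. The minimum was at P2 in r1 and at P1 in r2 and r3, and the highest level over the lowest was 10.7-fold, 20.6-fold and 4.65-fold in r1, r2 and r3. At P3 the libraries held 17.1, 24.6 and 17.3 TPM, all below the lowest t0 library. ZIC5 was at 29.3, 44.8 and 24.8 TPM at P4, and at 48.9, 32.8 and 20.1 TPM at P8, with 20.2 and 19.7 TPM at P9 and 52.7, 22.2 and 24.0 TPM at P10.

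Markers of other cells moved at the time points of the dip. The hESC markers summed to 2399, 1659 and 849.8 TPM at 36 h in r1, r2 and r3, to 1238, 105 and 100.4 TPM at P1, and to 87.9 to 115 TPM at P2, where DPPA4 alone held 86.8 to 92.9 TPM and NANOG and TDGF1 were at 0.22 TPM or less. POU5F1 was at 0.39 to 23.7 TPM at P2, and EPHA1 at 0.28 to 0.6 TPM. The 6 paraxial mesoderm markers, which include TBX6 and MSGN1, summed to 7.18 to 9.51 TPM at t0. In r1 they summed to 8.83, 7.6, 307.9 and 366 TPM at 36 h, P1, P2 and P3, in r2 to 132, 396, 103 and 16.01 TPM, and in r3 to 632, 487, 126 and 30.5 TPM. The paraxial sum was highest in the library with the lowest ZIC2 level in r2 and r3, but in r1 it was highest at P3, where ZIC2 was at 144 TPM against 38.0 TPM at P2. SOX2, a marker of pluripotent and neural cells, went from 173 to 193 TPM at t0 to 2.77 to 80.7 TPM at P1. The part of these cells in the ZIC2 and ZIC5 dip was not tested.

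The differentiations differed in level as well as in timing. Among the 7 time points from P3 to P10 that had 3 libraries, r3 was the highest for ZIC1 at 6 (P3 to P8) and for ZIC4 at 5 (P4 to P8). In the same span r3 was the lowest for ZIC2 at all 7 and for ZIC5 at 5. When time points were ordered by mean TPM, the ranges of neighbours in that order overlapped for 10 of 11 steps for ZIC1, 9 of 11 for ZIC4, 11 of 11 for ZIC2 and 9 of 11 for ZIC5. For ZIC1 the step without overlap separated P2 (60.0 ± 39.5 TPM, SD, n = 3) from P1 (6.03 ± 7.51 TPM, SD, n = 3), by no more than the 14.7 TPM of P1 and the 16.01 TPM of P2 in r1. The highest mean of ZIC1 was 278 ± 140.5 TPM at P4, and the highest of ZIC2 was 268 ± 25.6 TPM at t0 (SD, n = 3 each).

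Changes from t0 were tested with edgeR's quasi-likelihood test on rounded expected counts, with the differentiation as a block, and a gene was called at an FDR under 1%, a change of at least 2-fold and 100 or more normalized counts on average in the libraries compared. ZIC1 was called higher at 9 of 11 time points, P2 to P10, and so was ZIC4. ZIC4 at 36 h and P1, and ZIC1 at 36 h, had too few counts for a call whatever their p. ZIC2 and ZIC5 were called lower at 2 of 11, P1 and P2. Of all 21764 genes tested, 2.71% were called at 36 h, 8.79% at P1, 12.8% at P2, 13.6% at P3, 14% at P4, 14.3% at P5, 14.6% at P6, 15.2% at P7, 15.4% at P8, 19.7% at P9 and 18.3% at P10. By direction, the share of all genes called higher was 5.89% at P2, 5.79% at P3, 6.22% at P4, 6.43% at P5, 6.67% at P6, 7.26% at P7, 7.65% at P8, 10.3% at P9 and 9.5% at P10, and the share called lower was 5.37% at P1 and 6.94% at P2. These contrasts share the t0 libraries.

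At 36 h none of the 4 genes was called, whereas 589 genes were called and 5676 had an unadjusted p under 0.05. ZIC2 was lower by a log2 fold change of -1.29 (SE 0.40, adjusted p = 0.035, edgeR), and ZIC5 by -1.31 (SE 0.44, adjusted p = 0.051, edgeR). ZIC1 stood at 2.44 (SE 1.09) and ZIC4 at 3.05 (SE 1.54), with adjusted p-values of 0.15 and 0.22 (0.65 and 0.68 without r1, adjusted p = 0.44 and 0.83), and their 36 h libraries spanned the t0 range. With a mean of 89.6 normalized counts in these libraries, ZIC1 was also under the minimum for a call, and so was ZIC4 with 16.2. At P1, ZIC2 reached -1.99 (SE 0.41, adjusted p = 0.00063) and ZIC5 -2.25 (SE 0.45, adjusted p = 0.00053). At P2 they stood at -1.43 (adjusted p = 0.0059) and -2.13 (adjusted p = 0.00053). At P3 they were not called, at -1.01 (adjusted p = 0.041, edgeR) and -1.32 (adjusted p = 0.016, edgeR). Leaving out differentiation r2 took the call of ZIC2 and ZIC5 at P1 (adjusted p = 0.059 and 0.022), and leaving out r3 did the same (0.013 and 0.03). Their log2 fold changes were then -1.61 and -1.83 without r2, and -2.13 and -2.26 without r3. At P2 the call of ZIC2 was lost when any of the 3 was left out (adjusted p from 0.028 to 0.055), and that of ZIC5 without r1 (0.01) or r3 (0.024). The log2 fold changes were then between -1.64 and -1.13 for ZIC2, and -1.87 and -2.17 for ZIC5.

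At P1, ZIC1 stood at a log2 fold change of 3.51 (SE 1.11, adjusted p = 0.017, edgeR), which was not a call. It passed at an FDR under 5%, with DESeq2 (adjusted p = 0.00055) and with all 47 libraries in 1 fit (0.005), and over the alternatives the adjusted p ran up to 0.086. Its size depended on the differentiation, at 1.48 without r1 and 4.28 without r2. ZIC4 stood at 3.29 at P1 (SE 1.57, adjusted p = 0.11, edgeR), with a mean of 20.9 normalized counts, under the minimum for a call. ZIC1 was higher than at t0 by a log2 fold change of 6.81 at P2 (SE 1.20, adjusted p = 8.7e-05), 8.97 at P4 (SE 1.3, adjusted p = 6.7e-06) and 7.42 at P8 (SE 1.23, adjusted p = 2.9e-05). ZIC4 was higher by 6.47 at P2 (SE 1.41, adjusted p = 0.00075), 9.87 at P4 (SE 1.51, adjusted p = 1.4e-05) and 8.01 at P8 (SE 1.44, adjusted p = 7.9e-05). At P2 the calls of both were lost without r2 or without r3 (adjusted p from 0.011 to 0.032). The log2 fold changes were then 6.47 and 6.23 for ZIC1, and 5.73 and 6.45 for ZIC4. For ZIC2 and ZIC5 at P8 the log2 fold changes were -0.81 (SE 0.39) and -0.64 (SE 0.43), with adjusted p-values of 0.094 and 0.23. At P9, with 2 libraries, ZIC2 stood at -1.45 (adjusted p = 0.011) and ZIC5 at -1.42 (adjusted p = 0.023).

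**Figure D2:**
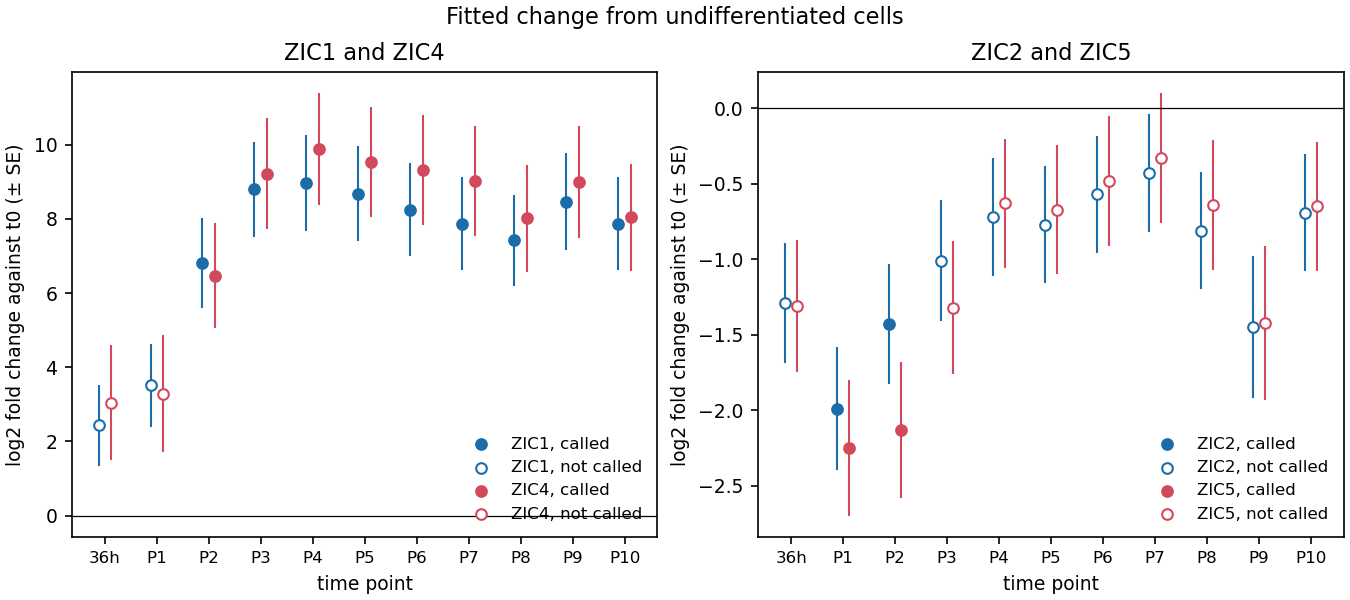
Log2 fold change against t0 at each later time point with its standard error, for ZIC1 and ZIC4 (left) and ZIC2 and ZIC5 (right), with filled points for calls and open points for the rest. ZIC1 and ZIC4 are filled from P2 to P10, and ZIC2 and ZIC5 at P1 and P2.

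Between later time points no ZIC gene was called from 36 h to P1, from P1 to P2, from P2 to P3, from P8 to P9 or from P8 to P10, where 1.19%, 0.0276%, 0.00919%, 1.22% and 0.0873% of genes were called. From P1 to P2 the log2 fold change was 3.30 for ZIC1 (SE 1.03, adjusted p = 0.11, edgeR) and 3.18 for ZIC4 (SE 1.17, adjusted p = 0.17, edgeR). Without r1, in which ZIC1 moved by only 0.12 on the log2 scale over this step, both were called, at 6.02 (adjusted p = 1.7e-05, edgeR) and 5.88 (adjusted p = 0.0012, edgeR), and over the other alternatives the adjusted p ran up to 0.79 and 0.82. The share of all genes called over this step without r1 is not given here, and the 0.0276% is from the fit with all 3 differentiations. From 36 h to P1, leaving out r1 raised the calls over all genes from 259 to 955. For the steps from P3 to P8 the adjusted p of the members was 0.86 or more. From 36 h to P1 the log2 fold changes ran from -0.94 (ZIC5, adjusted p = 0.19, edgeR) to 1.07 (ZIC1, adjusted p = 0.54, edgeR). From P8 to P9 they were 1.05 for ZIC1, 0.97 for ZIC4, -0.65 for ZIC2 and -0.77 for ZIC5, with adjusted p-values from 0.34 to 0.61. From P8 to P10 they were between -0.01 and 0.45. The epithelial neural progenitor markers summed to 166 to 693 TPM at P8, to 15.5 and 16.9 TPM at P9, and to 422, 6.78 and 5.75 TPM in r1, r2 and r3 of P10. SOX2 was at 100.2 to 320 TPM at P8 and at 4.88 to 5.98 TPM at P9, and the part of this shift in the ZIC levels of P9 and P10 was not tested. The counts of genes with an unadjusted p under 0.05 were 5086 from 36 h to P1, 5721 from P8 to P9 and 3572 from P8 to P10. In the test for a change at any time point, ZIC1 (adjusted p = 1.7e-05), ZIC4 (1.9e-05), ZIC5 (0.0018) and ZIC2 (0.0095) all passed at an FDR under 1%, and so did 55.7% of genes. The pass of ZIC2 was lost without the block (adjusted p = 0.011) and without P10 r1 (0.011). It was lost for all 4 genes when r2 or r3 was left out, and for ZIC2 and ZIC5 also without r1. Over these fits the adjusted p ran up to 0.022 for ZIC1, 0.02 for ZIC4, 0.26 for ZIC2 and 0.073 for ZIC5.

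The next question was whether the genes of a neighbouring pair keep step. Over the 35 whole cultures, log2 CPM of ZIC1 and ZIC4 had a Pearson r of 0.99 and a Spearman rho of 0.97, and ZIC2 and ZIC5 an r of 0.95 and a rho of 0.92. Without the 2 libraries farthest from the median of ZIC1 or ZIC2, r was 0.99 and 0.89. The libraries come from 3 differentiations and the genes share each library, so these are descriptions without a p-value. Because ZIC1 libraries fall into a low and a high cluster, r was also taken over the 23 libraries from P3 to P10, where it was 0.95 for ZIC1 and ZIC4 and 0.91 for ZIC2 and ZIC5. After subtracting the mean of each time point, r was 0.95 and 0.92. Across the pairs r was between 0.13 and 0.21 over all 35 and between -0.35 and -0.17 from P3 to P10.

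**Figure D3:**
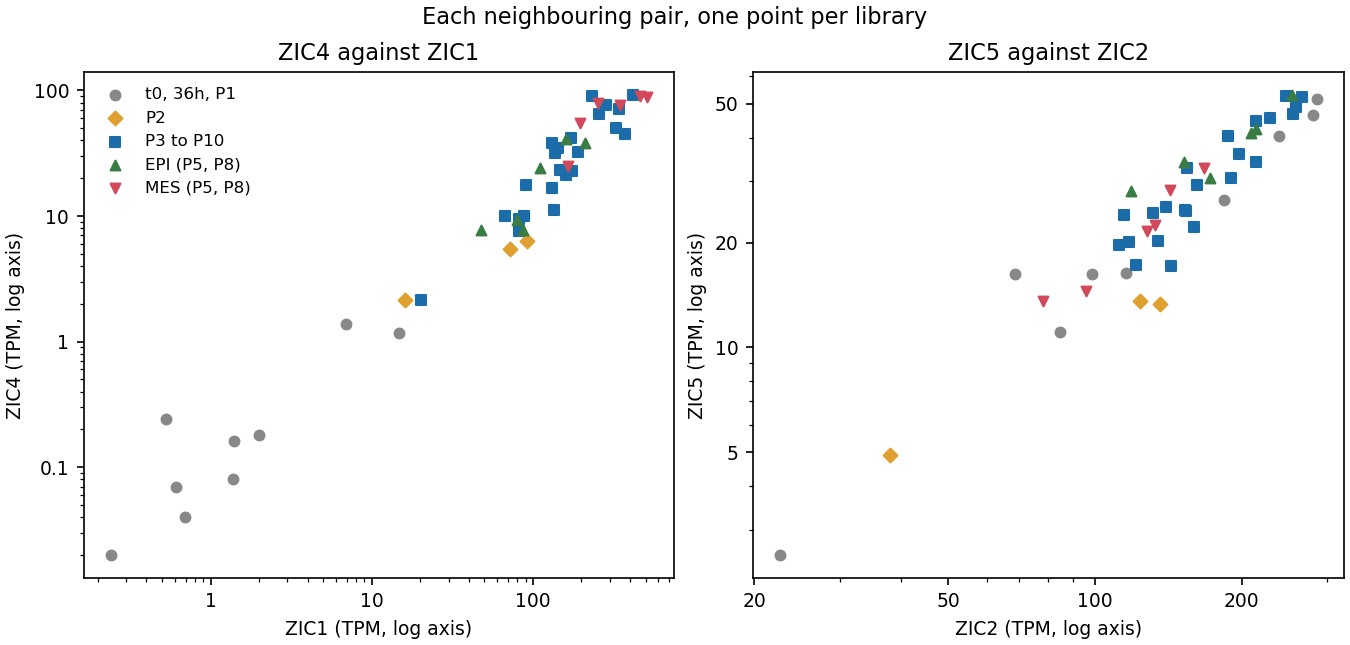
TPM of ZIC4 against ZIC1 (left) and of ZIC5 against ZIC2 (right) on log axes, with 1 point per library coloured by stage or fraction. Both pairs lie along a line over their whole range, and the t0, 36 h and P1 libraries fill the low end for ZIC1 and ZIC4 but reach both ends for ZIC2 and ZIC5.

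Within a pair the ratio of levels was not fixed. From P3 to P10, ZIC1 exceeded ZIC4 by 2.57-fold to 12.0-fold (TPM with 0.1 added to each), with a median of 6.36-fold over 23 libraries. ZIC2 exceeded ZIC5 by 4.64-fold to 8.35-fold with a median of 5.50-fold. Over all 35 whole cultures the ZIC2:ZIC5 ratio stayed between 4.19 and 10.1, with its highest group mean at P2 (log2 ratio 3.14 ± 0.21, SD, n = 3) against 2.54 ± 0.07 at t0 (SD, n = 3).

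The annotation used by the authors lists 17 transcripts for ZIC4, 5 for ZIC1, 5 for ZIC2 and 1 for ZIC5, and RSEM reports a gene length weighted by the isoforms it assigns. In libraries with at least 100 reads of the gene, that length ran from 2093 to 3452 bases for ZIC4 (38 libraries), from 1899 to 2397 for ZIC1 (40 libraries) and from 1883 to 2431 for ZIC2 (47 libraries), and it was 4639 bases for ZIC5 throughout. The ZIC4 length was therefore the least constant, and a ZIC4 level in TPM moves with it.

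The genes most like a member in their pattern over the whole cultures were taken from the 13262 other genes averaging 100 normalized counts or more. Its own neighbour ranked 1 of 13262 for each of the 4 genes. Beyond it, MIR99AHG, a microRNA host gene, was the most like ZIC1 (r = 0.951) and ZIC4 (r = 0.946). TBX15 and PRRX1, transcription factors of mesenchyme, followed for ZIC4 (r = 0.936 and 0.931), and TBX15 and LMX1B for ZIC1 (both r = 0.941). RHOJ, a small GTPase, was among the 5 for both (r = 0.941 and 0.928), with MDGA1 for ZIC4 (0.933) and PIP4K2B for ZIC1 (0.93). MIR99AHG, TBX15, RHOJ, MDGA1, PRRX1 and PIP4K2B were higher in MES than in EPI in 6 of 6 pairs of fractions, and LMX1B in 4 of 6.

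For ZIC2 the nearest were PPP1R9A (r = 0.828), MGAT4A (0.816), SLC4A8 (0.815), NAV2 (0.807) and APPL1 (0.803). For ZIC5 they were SPTLC2 (0.88), TMSB4X (0.848), SLC4A8 (0.84), BRINP1 (0.836) and TRIM69 (0.836). SLC4A8, a bicarbonate transporter, was shared by both lists. PPP1R9A, MGAT4A, APPL1 and SPTLC2 were higher in MES in 0 of 6 pairs of fractions, SLC4A8, NAV2 and TMSB4X in 2, TRIM69 in 3 and BRINP1 in 4. These genes were high at t0 and low at P1, as SPTLC2 was with 29.5 and 15.3 TPM and TMSB4X with 2069 and 848 TPM. With Spearman's rho in place of Pearson's r, 1 of the 5 genes was shared for ZIC1, 0 for ZIC4, 2 for ZIC2 and 3 for ZIC5, so the names depend on the measure.

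The second comparison asked in which fraction of the culture each ZIC gene is higher. ZIC1 and ZIC4 were higher in MES than in EPI in 6 of 6 pairs from the same passage and differentiation, and ZIC2 and ZIC5 were lower in MES in 6 of 6. These pairs are P5 and P8 of the same 3 differentiations. Of the 18886 genes tested in the fractions, 12.7% were higher in MES in all 6 pairs and 10.9% lower in all 6.

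ZIC1 in P5 EPI was at 79.3, 111 and 212 TPM in r1, r2 and r3, and in P5 MES at 513, 347 and 463 TPM. The lowest MES library was above the highest EPI library. At P8 the EPI libraries were at 48.0, 86.9 and 161 TPM and the MES libraries at 195, 165 and 253 TPM, and the groups again did not overlap. The ratio of MES to EPI ran from 1.57 to 6.47 over the 6 pairs, with the highest in r1 of P5. ZIC4 was at 9.27, 24.1 and 38.0 TPM in P5 EPI and at 89.2, 76.0 and 90.1 TPM in P5 MES, without overlap. At P8 it was at 7.75, 7.81 and 41.4 TPM in EPI and at 54.9, 25.0 and 79.5 TPM in MES, where r3 of EPI lay above r2 of MES.

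ZIC2 ran the other way, at 215, 209 and 172 TPM in P5 EPI and at 133, 128 and 95.9 TPM in P5 MES, without overlap. At P8 it was at 254, 152 and 118 TPM in EPI and at 167, 142 and 78.4 TPM in MES, and these overlapped because the differentiations differed by more than the fractions did. ZIC5 was at 42.3, 41.4 and 30.8 TPM in P5 EPI and at 22.4, 21.6 and 14.5 TPM in P5 MES, without overlap. At P8 it was at 53.0, 34.1 and 28.2 TPM in EPI and at 32.7, 28.2 and 13.6 TPM in MES. EPI exceeded MES by 1.07-fold to 1.80-fold for ZIC2 and by 1.21-fold to 2.12-fold for ZIC5 over the 6 pairs. ZIC2 and ZIC5 thus remained expressed in the MES fraction, where ZIC2 was at no less than 78.4 TPM.

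**Figure D4:**
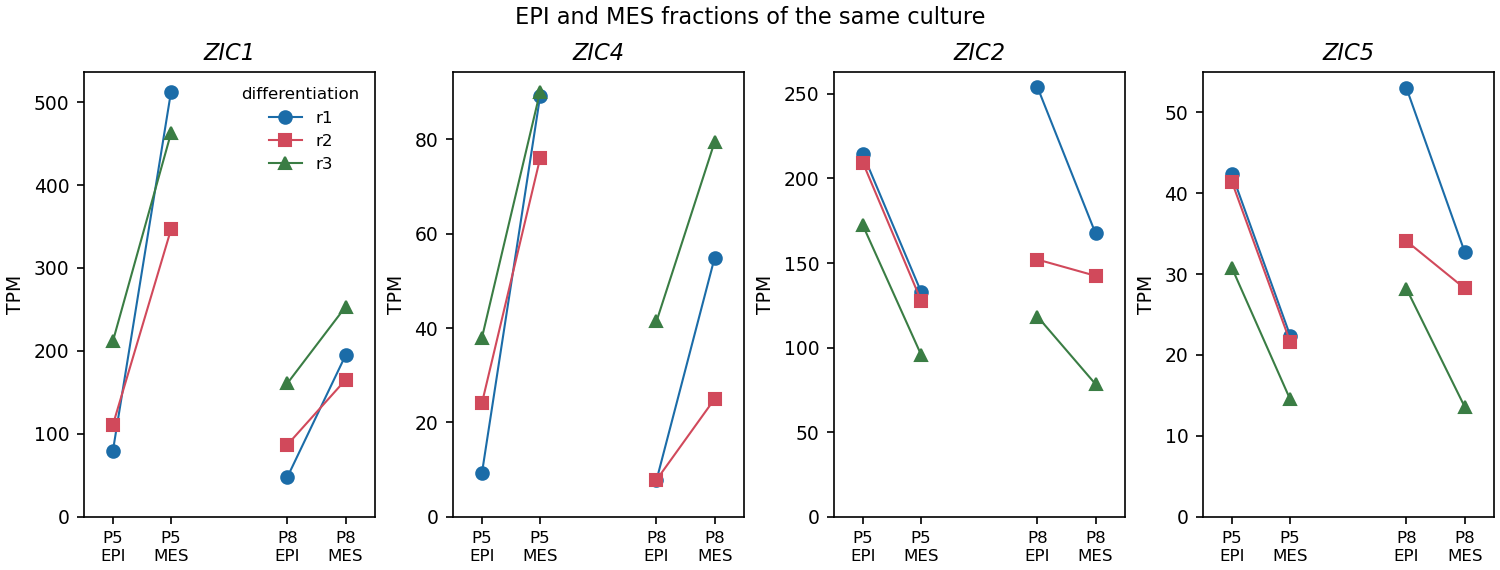
TPM in the EPI and MES fractions of P5 and P8, with lines joining the fractions of the same differentiation (r1 circles, r2 squares, r3 triangles). Every line rises from EPI to MES for ZIC1 and ZIC4 and falls for ZIC2 and ZIC5, 6 of 6 pairs for each gene.

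In the edgeR test at P5 the log2 fold changes of MES against EPI were 1.96 for ZIC1 (SE 0.37, adjusted p = 0.023), 2.01 for ZIC4 (SE 0.46, adjusted p = 0.038), -0.72 for ZIC2 (SE 0.14, adjusted p = 0.027) and -0.95 for ZIC5 (SE 0.16, adjusted p = 0.018). None of them was called at an FDR under 1%, and neither was any other gene (0% of 18886), although 4894 genes had an unadjusted p under 0.05 and DESeq2 called 674. DESeq2 with the same block called ZIC1 (adjusted p = 1.8e-06) and ZIC4 (adjusted p = 9.4e-05). In that DESeq2 fit ZIC5 (-0.96, adjusted p = 5e-06) and ZIC2 (-0.73, adjusted p = 0.0002) were also under an FDR of 1%. They were not called because their changes were under 2-fold. Over the alternatives the adjusted p of ZIC1 ran from 1.8e-06 to 0.27 and that of ZIC4 from 9.4e-05 to 0.27. For ZIC2 it ran from 0.0002 to 0.32 and for ZIC5 from 5e-06 to 0.25.

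At P8 the log2 fold changes were 1.21 for ZIC1 (SE 0.36), 1.54 for ZIC4 (SE 0.46), -0.52 for ZIC2 (SE 0.14) and -0.69 for ZIC5 (SE 0.16), with adjusted p-values from 0.26 to 0.31 (edgeR). No gene was called there (0%), with 2262 at an unadjusted p under 0.05 and 55 called by DESeq2. All 4 changes were nearer to 0 at P8 than at P5, but the test of the difference between the passages gave -0.75 for ZIC1 (SE 0.50), -0.47 for ZIC4 (SE 0.63), 0.20 for ZIC2 (SE 0.20) and 0.26 for ZIC5 (SE 0.22), with adjusted p-values from 0.85 to 0.93 (edgeR). No gene was called for that difference (0%), with 1153 at an unadjusted p under 0.05 and 1 called by DESeq2. Within MES, ZIC1 stood lower at P8 than at P5 by a log2 fold change of -1.22 (SE 0.36, adjusted p = 0.06, edgeR).

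Other markers moved with the fractions. Among 6 NC mesenchyme markers, SNAI2, SOX10 and TWIST1 were higher in MES in 6 of 6 pairs, FOXD3 and CDH11 in 5 and SOX9 in 4. The summed level of the list at P8 was 423 to 1415 TPM in EPI and 700.5 to 1635 TPM in MES, of which CDH11 made 339 to 846 and 467 to 819 TPM, against 0.41 to 1.2 and 2.99 to 8.21 TPM for SOX10. Of the 6 epithelial neural progenitor markers, SOX2 and CDX2 were lower in MES in 6 of 6 pairs, while EPCAM was higher in MES in 1, CDH1 in 3, and ESRP1 and CLDN6 in 4. The summed level of the list, to which the other 4 genes added at most 18.6 TPM each, went from 440.0 to 704.9 TPM in P5 EPI to 83.2 to 252 TPM in P5 MES and from 185 to 641 TPM in P8 EPI to 52.3 to 455 TPM in P8 MES. The part of the cell mixture in the ZIC differences was not tested. Paraxial mesoderm markers were low in the P5 and P8 fractions, with no marker of the 6 above 6.97 TPM and MYF5 at 0.06 TPM or less. Of the neuronal markers, STMN2, TUBB3, DCX and NEFM reached 67.5, 384, 11.3 and 260.1 TPM in a fraction, and ELAVL3 and ELAVL4 stayed at or below 2.58 and 2.45 TPM. NEFM was higher in MES in 6 of 6 pairs, DCX in 4, STMN2 and ELAVL4 in 3, TUBB3 in 2 and ELAVL3 in 1. The list summed to 199 to 337 TPM in P5 MES and 285 to 344 TPM in P5 EPI, and to 187 to 451 TPM in P8 MES and 199 to 326 TPM in P8 EPI.

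The whole culture of the same differentiation lay between its fractions for 11 of 12 gene and library pairs at P5 and for 8 of 12 at P8. At P5 the exception was r2 for ZIC2, and at P8 the exceptions were r3 for ZIC1 and ZIC4, whose whole cultures at 132 and 38.3 TPM were below both fractions, and r1 and r2 for ZIC2.

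Ratios between members were compared in the fractions over 3 ratios. The log2 ZIC1:ZIC2 TPM ratio was 1.3 on average in MES and -0.80 in EPI, a difference of 2.10 ± 0.88 (SD, n = 6 pairs, exact two-sided sign-flip permutation test, p = 0.03125, the smallest p that 6 pairs allow). Because ZIC1 was higher and ZIC2 lower in MES in every pair, the p of this ratio restates those directions and adds no evidence. The ZIC2:ZIC5 ratio was 0.23 ± 0.12 higher in MES, with a mean of 2.51 against 2.27, and the ZIC1:ZIC4 ratio differed by -0.42 ± 0.33, with a mean of 2.21 in MES against 2.63 in EPI. In TPM each difference had the same direction in 6 of 6 pairs, and the exact p of each was 0.03125, also after adjustment over the 3 ratios. Since both passages come from the same 3 differentiations, the pairs are not independent, and 3 independent units would allow no p below 0.25. The ZIC1:ZIC4 difference was -0.01 and -0.12 in r2 and r3 of P5, and with normalized counts in place of TPM its mean was -0.20 (adjusted exact p = 0.09375). With those counts r2 of P5 turned direction, with ZIC1 and ZIC4 at 5416 and 1420 in EPI and 18003 and 4317 in MES. The RSEM length of ZIC4 in r1, r2 and r3 was 3269, 2614 and 2727 bases in P5 EPI and 2783, 2454 and 2801 in P5 MES. At P8 it was 2519, 2784 and 2505 in EPI and 2093, 2441 and 2354 in MES. The part of this length in the ratio was not tested. Over the alternatives its adjusted p was between 0.0625 and 0.25.

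Shares of the 4 genes in their summed TPM are a description, without a test. At t0, ZIC2 held 85.1% of their summed TPM and ZIC5 14.6%, with 0.197% for ZIC1 (mean, n = 3). At P4, ZIC1 held 48.8% ± 10.7, ZIC2 34.9% ± 12.8, ZIC4 9.73% ± 5.57 and ZIC5 6.50% ± 2.6 (SD, n = 3). At P8, ZIC2 was again the larger share on average, 53.2% ± 14.6 against 30.4% ± 12.7 for ZIC1 (SD, n = 3). At P9 the order turned, with 50.5% for ZIC1 and 37.0% for ZIC2 (mean, n = 2), and at P10 ZIC2 held 49.5% ± 12.3 and ZIC1 36.3% ± 13.3 (SD, n = 3). The order at P10 rested on r1, which stood apart from the other P10 libraries, and without it the means were 42.6% for ZIC2 and 43.9% for ZIC1 (n = 2). In the fractions ZIC1 held 66.0% ± 4.82 in P5 MES and 32.8% ± 12.4 in P5 EPI, and 49.6% ± 8.81 in P8 MES and 30.1% ± 16.5 in P8 EPI (SD, n = 3). The summed TPM of the 4 genes was 85.2 ± 52.9 at P1 and 548 ± 184 at P4 (SD, n = 3).

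**Figure D5:**
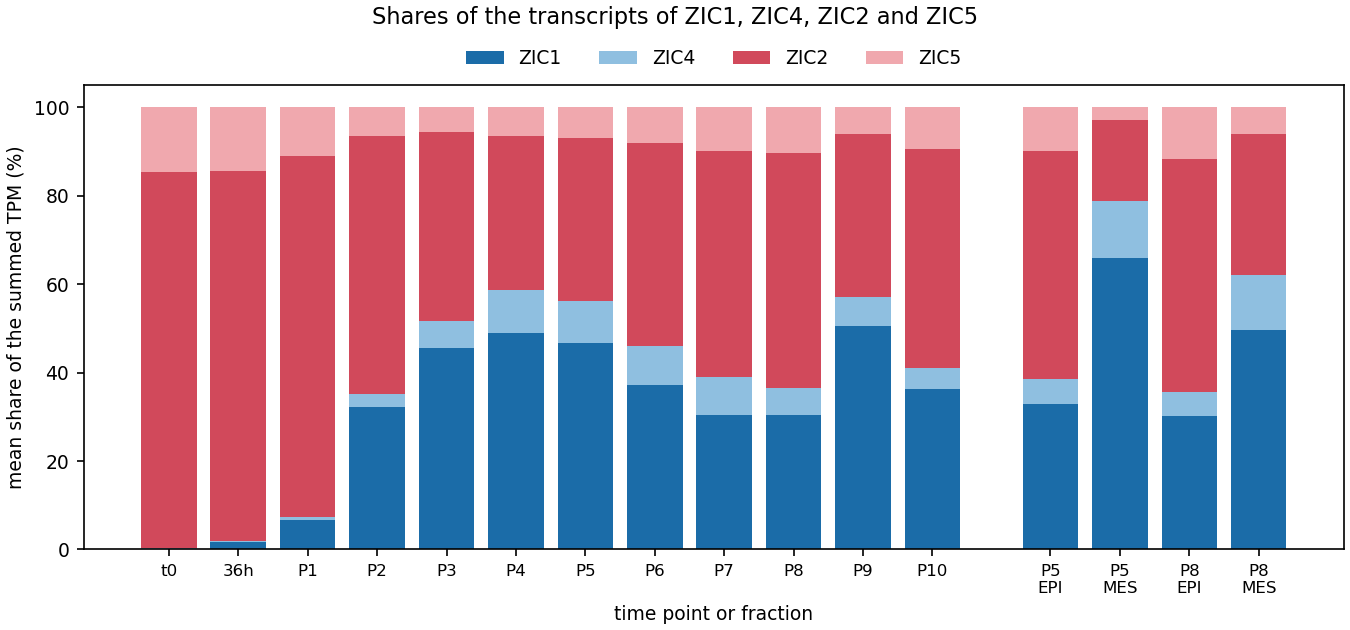
Mean share of each gene in the summed TPM of ZIC1, ZIC4, ZIC2 and ZIC5, in percent, per time point and fraction (n = 3, and 2 at P9). ZIC2 and ZIC5 make up nearly all of it at t0, ZIC1 reaches 48.8% at P4 and 50.5% at P9, and ZIC1 is the largest share in both MES fractions.

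Which gene was higher depended on the differentiation. ZIC1 was above ZIC2 in 6 of 6 MES libraries and in 2 of 6 EPI libraries, both from r3. In whole cultures ZIC1 was above ZIC2 at 7 of 11 time points in r3 (P3 to P8 and P10), at 3 of 12 in r2 (P3, P4 and P9) and at 2 of 12 in r1 (P5 and P9). No library of t0, 36 h, P1 or P2 had ZIC1 above ZIC2.

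Genes next to the pairs give the genomic surroundings. Within 500 kb of ZIC1 and ZIC4 the files list 8 other genes, of which 2 averaged 10 normalized counts or more. AC092957.1, an antisense gene on chromosome 3 from 146909685 to 147370656, went from 0 normalized counts at t0 and 36 h to 59.7 at P4 and 29.1 at P8, and was at 114 in P5 MES and 29.6 in P5 EPI (means, n = 3). AC092958.1, a lincRNA, was at 2.44 at t0, 49.3 at P4 and 2.29 at P8, and at 40.9 in P5 MES against 10.7 in P5 EPI. Around ZIC2 and ZIC5, 7 of 19 genes passed that minimum. TM9SF2, a membrane protein gene, was between 7727 and 9205 normalized counts at t0, 36 h, P1, P4 and P8, and PCCA, a mitochondrial carboxylase subunit, went from 2970 at t0 to 1592 at P1 and 1636 at P8. CLYBL was at 525 at t0, 202 at P1 and 216 at P8, AL355338.1 went from 403 to 253 and 279.8, and LINC01232, LINC00449 and AL139035.1 had means of 35.4, 14.1 and 12.0 over all libraries.

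Genes of related function were counted from 4 lists. At P8 against t0, 7 of 8 neural plate border genes were called higher, against 7.65% of all genes, and none lower (median log2 fold change 6.48, against 0.02 over all genes), among them PAX3 at 9.41 (SE 0.70, adjusted p = 3.8e-10, edgeR), which acts with ZIC1 in crest induction, and MSX1 at 8.60 (SE 0.88, adjusted p = 4.5e-08, edgeR). Between fractions PAX3 stood the other way from ZIC1, at -1.03 in MES against EPI at P5 (adjusted p = 0.045, edgeR) and -0.33 at P8 (adjusted p = 0.63, edgeR). At 36 h, 3 of those 8 were called higher, namely MSX1, GBX2 and MSX2, against 1.33% of all genes, and of the other lists 1 of 9 NC specifiers (SNAI2), 1 of 5 dorsal genes tested (MSX1) and 0 of 6 GLI-related genes. Of 9 NC specifiers, 4 were called higher at P8 (TFAP2B, TWIST1, SNAI2 and SOX9; median 1.87) and none lower. Of 6 GLI-related zinc finger genes, GLI3 at 2.90 (SE 0.35, adjusted p = 5.2e-07, edgeR) and GLIS3 at 4.19 (SE 0.98, adjusted p = 0.0011, edgeR) were called higher (median 1.61). Of 7 dorsal neural tube genes, 5 were tested and MSX1, which is also on the border list, was called higher (median 3.55). In MES against EPI none of the 28 tested list entries was called at either passage, and the medians at P5 were 1.63 for NC specifiers, 0.17 for border genes, 0.18 for GLI-related genes and 0.43 for dorsal genes, against 0 over all genes. At P8 they were 0.47, -0.09, 0.24 and 0.07 in the same order, against -0.01 over all genes.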

How the data were processed

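For each of the 47 libraries the authors deposited RSEM gene tables with expected counts, which divide reads between the genes they fit, with TPM and a gene length weighted by isoform. The submitters' processing notes name cutadapt 1.16, STAR 2.5.2b, RSEM 1.3.0 and GRCh38 for polyA-selected single-end reads. The annotation release and the strand setting are not given in the sources used here. Totals ran from 13029491 to 64082859 expected counts per library, and 9.33% of the expected count values were not whole. The reads had no molecular identifiers, and no 2 libraries of a group held the same values.

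Gene symbols, for 57447 of 58051 identifiers, came from GENCODE 29. Expected counts were rounded and tested with edgeR 4.0.16 (glmQLFit and glmQLFTest, TMM, filterByExpr, Benjamini-Hochberg adjustment) in R 4.3.3, in 1 fit over the 35 whole cultures (21764 genes) and 1 over the 12 fractions (18886 genes). Normalized counts are rounded counts divided by TMM size factors. The block is the replicate number, since the series text says that each experiment held all time points. Deviations from time point means correlated by 0.14 on average between libraries of the same number and by -0.07 between others. Ratios of TPM used a pseudocount of 0.1 and an exact sign-flip permutation test (Python 3.11.15, scipy 1.17.1). Scripts were tested on simulated data.

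Alternatives were no block, DESeq2 1.42.0, its size factors in edgeR, no count filter, all libraries or only the compared groups in a fit, an FDR under 5%, each replicate left out, another pseudocount, and normalized counts for ratios. The fits and shares without P10 r1 and the ratios per passage were added after seeing the data. Named genes are the members, the 5 genes most correlated with each (log2 CPM, prior count 2, mean of at least 100 normalized counts), neighbours within 500 kb with a mean of at least 10, and list genes chosen by the largest change in P8 MES against EPI among calls. Since no list gene was called there, those named from the lists were chosen after their values were seen. The members and lists were chosen with earlier results of these data known. A further gene of the family is not reported here.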

Additional observations from a re-analysis of the deposited data

How the results depend on the processing

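No called change of a member turned direction under any alternative that was run. Among changes that were not called, those of ZIC4, ZIC5 and ZIC2 from P8 to P10 turned sign. ZIC4 (0.03) was at -0.1 without the replicate block, at -0.06 with the compared groups alone and at -0.66 to 0.51 without a replicate, ZIC5 (-0.01) was at 0.01 with DESeq2 or its size factors and at -0.14 to 0.22 without a replicate (-0.34 without P10 r1), and ZIC2 (0.12) was at 0.1 to 0.17 without a replicate and at -0.08 without P10 r1. The ZIC5 change from P1 to P2 (0.12), also not called, was at -0.55 to 0.84 without a replicate. Of the tests against t0, the count of time points called for ZIC2 went from 2 to 5 at an FDR under 5%, and that for ZIC5 from 2 to 4 at an FDR under 5%, with DESeq2 or with all 47 libraries in 1 fit. Leaving out a replicate gave 0 to 1 for ZIC2 and 0 to 1 for ZIC5. The P8 against t0 change of ZIC4 was 7.64 to 8.52 without a replicate and lost its call without r3 (adjusted p = 0.01). The adjusted p for a change at any time point was 5.6e-08 to 0.022 for ZIC1, 2.8e-06 to 0.02 for ZIC4, 0.041 to 0.26 for ZIC2 and 0.024 to 0.073 for ZIC5 without a replicate, where fewer libraries were tested, and 0.0016 for ZIC5 without P10 r1. Without the replicate block it was 0.011 for ZIC2, and also 0.011 without P10 r1, and the block changed no other call of a member. At an FDR under 5%, ZIC2 at 36 h (-1.29), ZIC1 at P1 against t0 (3.51), and ZIC1 and ZIC4 in P5 MES against EPI (1.96 and 2.01) became calls. DESeq2 called the latter pair at 1.95 and 2.0. ZIC2 and ZIC5 in P5 MES against EPI were also under that FDR (adjusted p = 0.027 and 0.018, edgeR). Their changes of -0.72 and -0.95 were under the 2-fold minimum. The count of time points called against t0 for ZIC1 went from 9 to 10 at an FDR under 5%, with DESeq2 or with all 47 libraries in 1 fit. It was 8 to 9 without a replicate. The ZIC1:ZIC4 ratio difference was -0.2 with normalized counts, -0.36 with a pseudocount of 1 TPM and -0.52 to -0.29 without a replicate. Without a replicate ZIC2:ZIC5 gave 0.18 to 0.27 and ZIC1:ZIC2 1.65 to 2.34, but 4 pairs cannot reach a p below 0.125. The 3 pairs of P5 gave -0.23, 0.23 and 2.57 for ZIC1:ZIC4, ZIC2:ZIC5 and ZIC1:ZIC2 and those of P8 -0.61, 0.24 and 1.63, where p cannot go below 0.25. The cause of the other differences was not tested. Over all genes the calls at 36 h numbered 589, but 168 with the compared groups alone and 83 to 891 without a replicate. From 36 h to P1 they numbered 259, but 561 with DESeq2, 427 with all libraries in 1 fit, 0 with the compared groups alone and 2 to 955 without a replicate. From P8 to P9 they numbered 265, but 783, 583 and 0 under the same settings, 15 without the block, 637 without P10 r1 and 0 to 464 without a replicate. From P8 to P10 they numbered 19, but 280, 99 and 0, with 8 without the block, 841 without P10 r1 and 0 to 917 without a replicate. At P8 against t0 they numbered 3351, but 2102 without r2. In P5 MES against EPI there were 0 calls, but 106 without a count filter and 13 with all libraries in 1 fit. At t0, ZIC4 rests on 1 to 7 reads per library, which limits every fold change against it.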
